A study of Mus with 9 samples.

Results

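Neurexins, neuroligins and the leucine-rich repeat transmembrane proteins (Lrrtm) are the adhesion molecules through which a nerve terminal and the dendrite opposite it recognise each other. They were described here through 9 genes, Nrxn2, Nrxn3, Nlgn1, Nlgn2, Nlgn3, Lrrtm1, Lrrtm2, Lrrtm3 and Lrrtm4, which were found by an exact match of the gene symbol. Each had 1 probe set, so the 9 genes made up 9 of the 22206 probe sets measured. Other genes of the neurexin and neuroligin families were not analysed here.

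The RNA came from the hippocampus of male mice in 3 groups, with 3 arrays each by the sample titles, although the series text speaks of duplicate RNA samples. The mice entered the study at 16 weeks of age, and the hippocampus was taken after acclimatization, dosing and the maze test, so they were older at sampling. SAMR1, the senescence-resistant strain, and SAMP8, the senescence-accelerated strain that loses spatial memory early, both received vehicle by mouth for 30 days. The TG-treated SAMP8 group received trigonelline (TG), an alkaloid of coffee and fenugreek, at 5 mg/kg per day for 30 days, and TG was continued during the water maze test that all groups underwent. SAMR1 and SAMP8 are separate inbred lines, so their difference covers the whole genetic background and not a single allele. The vehicle was saline by the sample records and water by the methods. The free-text description of the records names a macrophage cell line and was not used; groups were taken from the sample titles.

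Neurexins sit in the presynaptic membrane and reach across the cleft to bind several kinds of postsynaptic partner. Neuroligins bind them from the dendrite and anchor scaffold and receptors, with Nlgn1 known from excitatory synapses, Nlgn2 from inhibitory synapses and Nlgn3 from both. The Lrrtm proteins are a second family of neurexin ligands, known from excitatory synapses, and Lrrtm4 also binds heparan sulfate proteoglycans. In the hippocampus these pairs take part in the formation of synapses and in keeping AMPA receptors in place during long-term potentiation.

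The values are the deposited group averages of log2 signal on Clariom S Mouse arrays, 1 average per group and probe set. Values per array were not analysed here, so no average or difference carries an error, no test between groups was possible, and "higher" or "lower" below describes the averages only. A difference of averages is given as a log2 difference, and a difference of more than 1.5-fold (0.58 on the log2 scale) was counted. Probes of different genes differ in brightness, so levels are compared between groups and never between genes. Precision is limited by how few arrays stand behind each average.

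Markers of the labelled tissue were looked at first, without a limit of detection. Neurod6, a transcription factor of hippocampal pyramidal neurons, stood at 14.86 for SAMR1, 14.85 for SAMP8 and 14.88 for SAMP8 with TG. Of 10 markers of hippocampal excitatory neurons, 9 had a probe set of their own. Of these 9, 8 were higher in SAMP8 than in SAMR1, 3 of them past 1.5-fold, where 5% of all probe sets were. Spink8, the dimmest, stood at 5.20 in SAMR1, under the median of all probe sets (6.09), and at 6.50 in SAMP8. Prox1, a marker of dentate granule cells, stood at 11.26, 11.85 and 11.00 in the order SAMR1, SAMP8, SAMP8 with TG, and Zbtb20, on a probe set shared with another symbol, was left out. The averages also shifted with brightness. In the 25% of probe sets with the highest signal, the median log2 difference was 0.12 for SAMP8 minus SAMR1 and -0.06 for TG-treated SAMP8 minus SAMP8, whereas in the 25% with the lowest signal it was -0.08 and 0.04. Each gene was therefore also set beside the 1000 probe sets of closest average signal.

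Nrxn2 and Nrxn3, the presynaptic genes, showed unlike orders of the 3 groups. Nrxn2, on chromosome 19 from 6418756 to 6533217 (GRCm38), had averages of 8.54 for SAMR1, 8.94 for SAMP8 and 8.83 for SAMP8 with TG. Both SAMP8 groups lay above SAMR1, and TG-treated SAMP8 lay close to nontreated SAMP8. Its log2 difference was 0.40 for SAMP8 minus SAMR1 and -0.11 for TG-treated SAMP8 minus SAMP8. As much or more was seen in 22.1% of the probe sets of like signal in the first difference and in 44.9% in the second.

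Nrxn3, which spans 1612 kb on chromosome 12 from 88722701 to 90334935, stood at 12.39 for SAMR1, 12.37 for SAMP8 and 12.02 for SAMP8 with TG. The SAMR1 and SAMP8 averages were nearly the same, and the TG-treated group was the low one. The log2 difference between the strains was -0.02, and its sign turned when each group was centred on its median (0.03). With TG it was -0.35, a level reached or passed downward by 18.1% of the probe sets of like signal. Against SAMR1 the TG-treated group was lower by a log2 difference of -0.37.

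**Figure D1:**
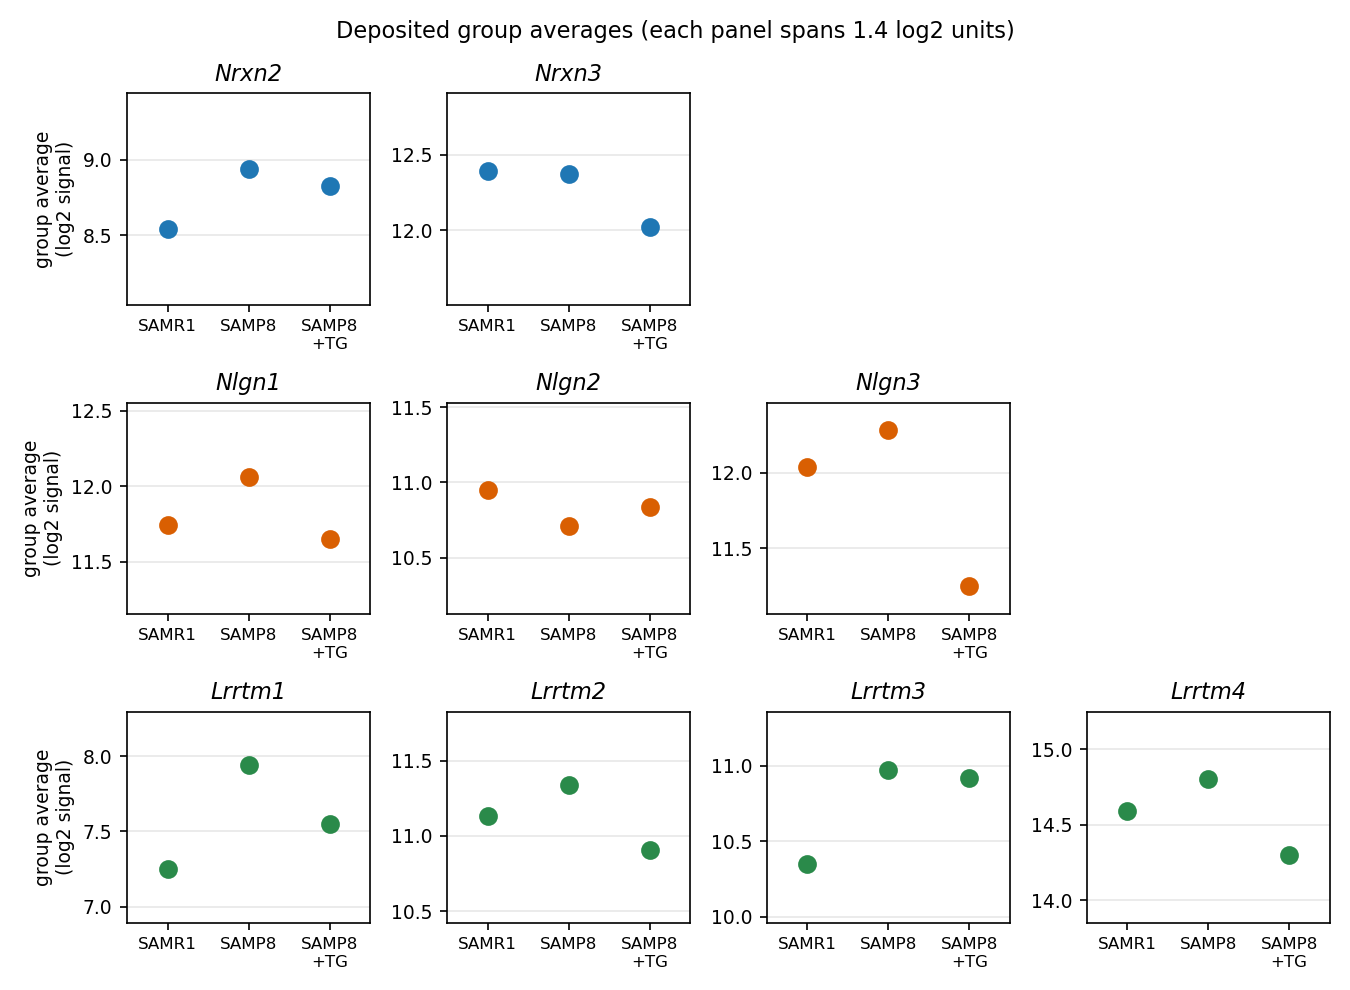
Deposited group averages of the 9 genes in log2 signal (y axis, each panel spanning 1.4 log2 units around its own middle) for SAMR1, SAMP8 and TG-treated SAMP8 (x axis), with neurexins in the top row, neuroligins in the middle and Lrrtm genes at the bottom. Each point is 1 group average without an error; Nlgn3 has the widest range, from 11.25 with TG to 12.28 in SAMP8.

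Of the 3 neuroligin genes, Nlgn1 and Nlgn3 were higher in SAMP8 than in SAMR1 and lower with TG. Nlgn2 went the other way in both comparisons. The widest difference of all 9 genes was that of Nlgn3 with TG. Nlgn3, on chromosome X from 101299179 to 101321350, had averages of 12.04 for SAMR1, 12.28 for SAMP8 and 11.25 for SAMP8 with TG. The TG-treated group was far below both vehicle groups, which lay close together. TG-treated SAMP8 was 2.04-fold lower than SAMP8 (log2 difference -1.03) and 1.73-fold lower than SAMR1 (log2 difference -0.79). Only 0.288% of all probe sets, and 0.2% of those of like signal, were lower with TG by as much. Between the strains its log2 difference was 0.24, against a median of 0.12 for probe sets of like signal.

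Nlgn1, on chromosome 3 from 25421808 to 26332866, stood at 11.74 for SAMR1, 12.06 for SAMP8 and 11.65 for SAMP8 with TG. SAMP8 was the high group, and the remaining averages were close to each other. The log2 difference was 0.32 between the strains and -0.41 with TG, and 24.4% and 13.8% of the probe sets of like signal went as far in the same direction.

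Nlgn2 was the only one of the 9 genes whose average was lowest in SAMP8. This neuroligin of inhibitory synapses, on chromosome 11 from 69823123 to 69837784, had averages of 10.95 for SAMR1, 10.71 for SAMP8 and 10.84 for SAMP8 with TG. Its log2 difference was -0.24 between the strains, which 9.8% of the probe sets of like signal reached or passed, and 0.13 with TG, with 25.1% reaching or passing it. Both differences were under 1.2-fold. Among genes chosen after these values were seen, Gphn (gephyrin, the scaffold of inhibitory synapses, which binds Nlgn2) stood at 11.22, 11.35 and 11.14 in SAMR1, SAMP8 and TG-treated SAMP8. Its order of groups was not that of Nlgn2. Mdga1, whose protein binds neuroligins on the same membrane and blocks neurexin, stood at 9.40, 9.22 and 9.49, with SAMP8 as the low group.

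The 4 Lrrtm genes had higher averages in SAMP8 than in SAMR1 and lower averages with TG than in nontreated SAMP8, except that Lrrtm3 turned to a small positive difference with TG under quantile normalization (0.03). Lrrtm1, on chromosome 6 from 77229210 to 77259915, stood at 7.25 for SAMR1, 7.94 for SAMP8 and 7.55 for SAMP8 with TG. SAMP8 was 1.61-fold higher than SAMR1 (log2 difference 0.69), and 5.3% of the probe sets of like signal were higher by as much. The TG-treated average lay between both vehicle groups, at a log2 difference of -0.39 from SAMP8 and 0.30 from SAMR1.

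Lrrtm3, on chromosome 10 from 63928497 to 64090255, stood at 10.35 for SAMR1, 10.97 for SAMP8 and 10.92 for SAMP8 with TG. Both SAMP8 groups were above SAMR1, and they nearly coincided. SAMP8 was 1.54-fold higher than SAMR1 (log2 difference 0.62, reached by 5.6% of the probe sets of like signal). The log2 difference with TG was -0.05, and that of TG-treated SAMP8 against SAMR1 was 0.57.

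Lrrtm2, on chromosome 18 from 35209003 to 35215024, had averages of 11.13 for SAMR1, 11.34 for SAMP8 and 10.91 for SAMP8 with TG. Lrrtm4, on chromosome 6 from 80018858 to 80810162, had averages of 14.59, 14.80 and 14.30 in the same order. In both genes SAMP8 was the high group and TG-treated SAMP8 the low one. Their log2 differences were 0.21 each between the strains and -0.43 and -0.50 with TG, and 15.8% and 7.3% of the probe sets of like signal were lower with TG by as much.

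Lrrtm1, Lrrtm2 and Lrrtm3 lie inside the genes of alpha-catenins, which link cadherins to actin, while no protein-coding gene of the RefSeq annotation encloses Lrrtm4. Ctnna2, the host of Lrrtm1 on chromosome 6 from 76881637 to 77979815, stood at 11.25 for SAMR1, 11.14 for SAMP8 and 11.18 for SAMP8 with TG. Ctnna3, the host of Lrrtm3 on chromosome 10 from 63430098 to 65003667, stood at 5.37, 5.01 and 5.22. Both hosts were lowest in SAMP8, where the Lrrtm gene inside them was highest. Their log2 differences between the strains were small, -0.11 for Ctnna2 and -0.36 for Ctnna3. As low or lower were 20% and 21.7% of the probe sets of like signal. Ctnna3 was dim, under the median of all probe sets in each group (6.09, 6.04 and 6.07). Ctnna1, the host of Lrrtm2 on chromosome 18 from 35118902 to 35254776, stood at 8.16, 8.78 and 8.58, with SAMP8 as the high group as for Lrrtm2.

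**Figure D2:**
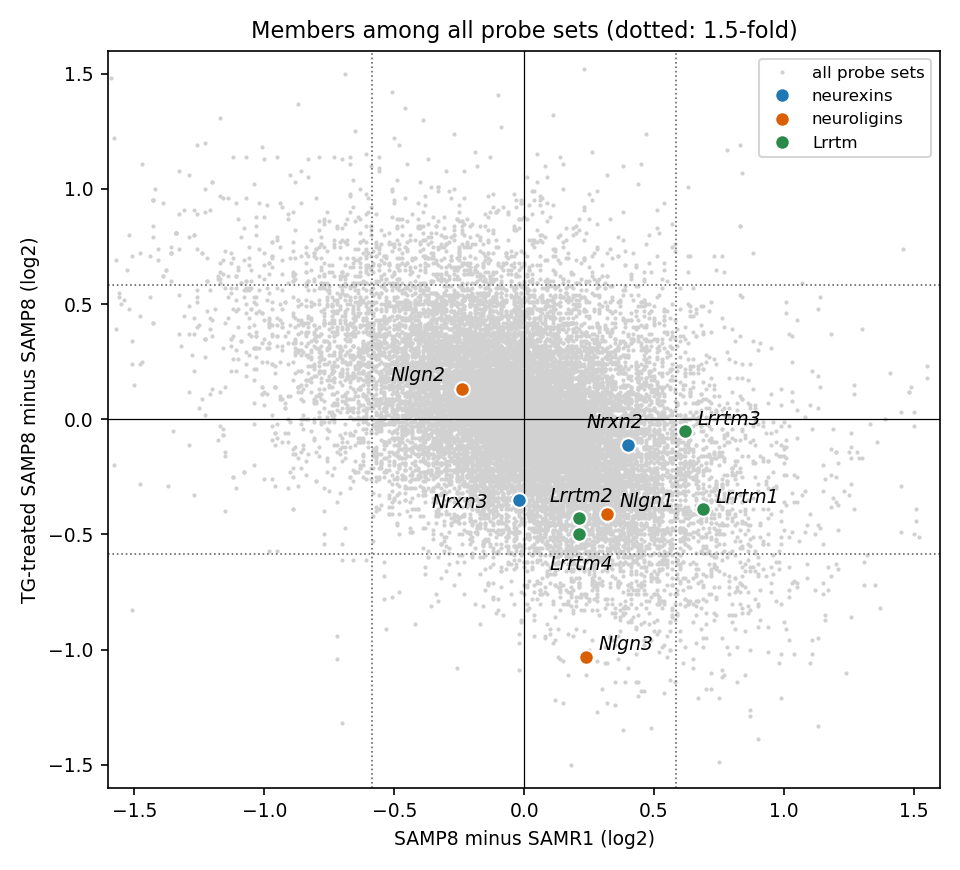
Log2 difference of SAMP8 minus SAMR1 (x axis) against TG-treated SAMP8 minus SAMP8 (y axis) for the 9 genes (coloured by family) and all probe sets (grey; 125 lie outside the axes), with dotted lines at 1.5-fold. The SAMP8 average enters both axes with opposite sign, which tilts the grey cloud; 7 genes lie at the lower right, Nlgn2 lies at the upper left, and Nlgn3 is the lowest of the 9 at -1.03.

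The first comparison asked how the hippocampus of the senescence-prone strain differs from that of the resistant strain. Of the 9 genes, 7 were higher and 2 lower in SAMP8, and 2 were past 1.5-fold, Lrrtm1 and Lrrtm3, both higher. Not higher in SAMP8 were 50.5% of all probe sets. Of all probe sets, 11.1% were past 1.5-fold in this comparison, 5% higher and 6.08% lower in SAMP8. The median log2 difference of the 9 genes was 0.24, against 0.00 over all probe sets and 0.09 to 0.14 over the probe sets of like signal to each gene. All 9 lay between the 5th and the 95th percentile of the probe sets of like signal. With quantile-normalized averages Lrrtm3 dropped under 1.5-fold (log2 difference 0.46), and Lrrtm1 stayed past it.

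The second comparison asked what TG changed within SAMP8. With TG, 8 of the 9 genes were lower and 1, Nlgn2, was higher, and Nlgn3 alone was past 1.5-fold. Lower with TG were 48.3% of all probe sets. Past 1.5-fold were 8.21% of all probe sets, 4.48% higher and 3.74% lower with TG. The median log2 difference of the 9 genes was -0.39, against 0.01 over all probe sets and -0.09 to -0.04 over those of like signal. Nlgn3 lay below the 5th percentile of its probe sets of like signal, and the other 8 genes lay between the 5th and the 95th. Past 1.2-fold were 6 of the 9 genes, Nrxn3, Nlgn1, Nlgn3, Lrrtm1, Lrrtm2 and Lrrtm4, all lower with TG, where 38.2% of all probe sets passed that limit in either direction.

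Set against SAMR1, the TG-treated group was higher for 3 genes, Nrxn2, Lrrtm1 and Lrrtm3, and lower for 6. It was higher for 48.1% of all probe sets and lower for 50.4%. Nlgn3 was the one past 1.5-fold, where 10.5% of all probe sets were, 5.62% higher and 4.83% lower. Lrrtm3, at 1.48-fold higher, was just inside that limit and passed it when each group was centred on its median. The median log2 difference of the 9 genes was -0.11, against -0.01 over all probe sets. At other limits the shares of all probe sets were wider or narrower. Past 1.1-fold were 8, 6 and 7 of the 9 genes for SAMP8 minus SAMR1, TG-treated SAMP8 minus SAMP8 and TG-treated SAMP8 minus SAMR1, where 65.5%, 63.4% and 64.9% of all probe sets were. Past 1.2-fold were 4, 6 and 6, where 40.8%, 38.2% and 40.5% of all probe sets were. Past 2-fold were 0, 1 and 0, where 2.22%, 0.761% and 1.81% of all probe sets were, and the 1 gene was Nlgn3. The 3 comparisons share group averages, so they are given side by side and none supports another. SAMP8 had the highest of the 3 averages for 7 of the 9 genes, for 32.2% of all probe sets and for 43.9% of the 25% with the highest signal. It was also highest for 40 of the 70 probe sets of the other synaptic adhesion genes described below. TG-treated SAMP8 had the lowest average for Nrxn3, Nlgn1, Nlgn3, Lrrtm2 and Lrrtm4, 5 of the 9. It was lowest for 31.6% of all probe sets, for 35.4% of the 25% with the highest signal and for 25 of those 70.

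**Figure D3:**
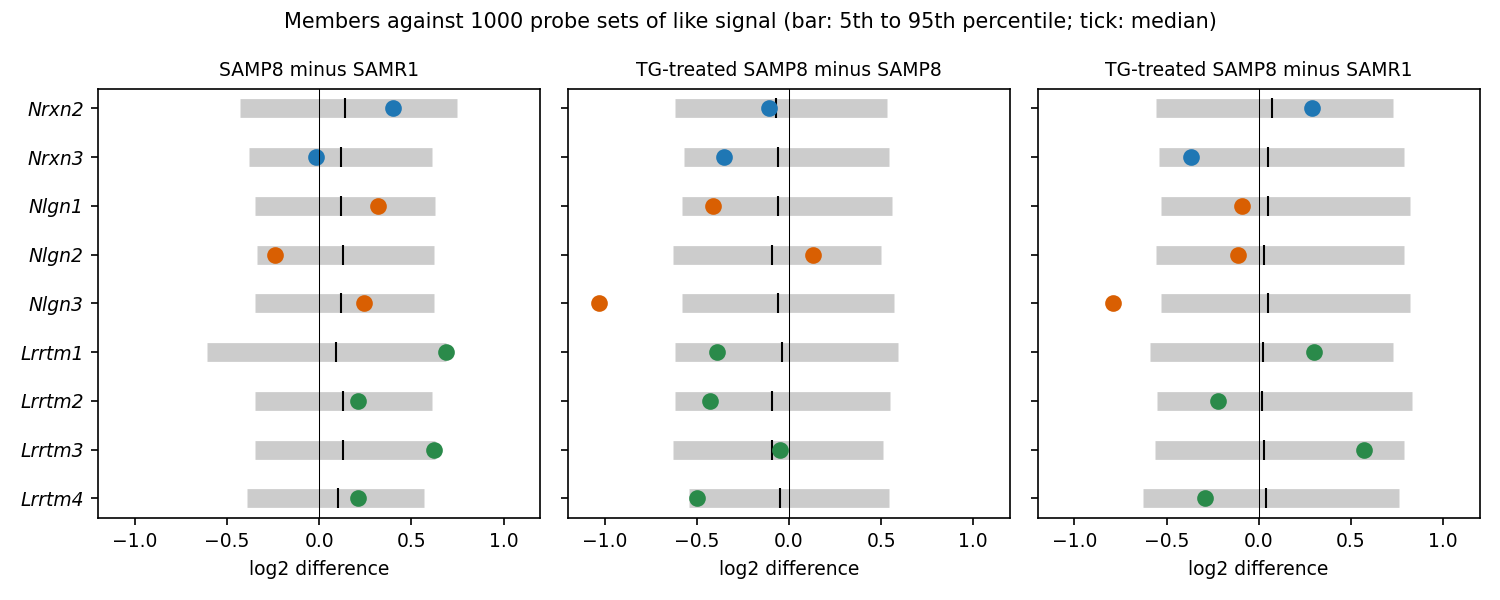
Log2 difference (x axis) of each of the 9 genes (points, coloured by family) in the 3 comparisons, over the range from the 5th to the 95th percentile (grey bar) and the median (tick) of the 1000 probe sets of closest average signal. Nlgn3 lies left of its bar in both comparisons that involve TG (-1.03 and -0.79), and the other genes lie within their bars.

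Presynaptic and postsynaptic genes were then compared. Between the strains the median log2 difference was 0.19 for the 2 neurexins and 0.24 for the 7 postsynaptic genes, with 4 of the 7 lying between Nrxn2 and Nrxn3. With TG the medians were -0.23 and -0.41. In that comparison 5 postsynaptic genes, Nlgn1, Nlgn3, Lrrtm1, Lrrtm2 and Lrrtm4, were lower than both neurexins, and Nlgn2 and Lrrtm3 were above both. For TG-treated SAMP8 minus SAMR1 the medians were -0.04 and -0.11, with 4 of the 7 between the neurexins. The postsynaptic genes were thus spread wider than the gap between the medians in each comparison, from -1.03 to 0.13 with TG. With 2 presynaptic genes the gap (0.18 with TG) is a description with no test.

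By family, the median log2 difference between the strains was 0.42 for the Lrrtm genes and 0.24 for the neuroligins, and with TG it was -0.41 for both. The genes were also set apart by span. The 5 genes over 100 kb (Nrxn2, Nrxn3, Nlgn1, Lrrtm3 and Lrrtm4) had a median log2 difference of -0.35 with TG, and the 4 shorter ones (Nlgn2, Nlgn3, Lrrtm1 and Lrrtm2) one of -0.41. Probe sets of like span had medians from -0.14 to -0.09 for the long genes and from -0.04 to 0.05 for the short ones.

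Other genes of synaptic adhesion were taken from a list of 71, of which 69 had a probe set of their own (Ntng2 and Lrfn1 did not). The list also holds Ctnna1, Ctnna2 and Ctnna3, which entered it as hosts of Lrrtm genes. Between the strains 49 of the 69 were higher and 19 lower in SAMP8, where 50.5% of all probe sets were not higher. Past 1.5-fold were 8, Ctnna1 (1.54-fold) among them, all higher. That was 11.6% of the 69, near the 11.1% of all probe sets past 1.5-fold in either direction, of which 5% were higher. With quantile-normalized averages 5 of the 69 were past it. Their median log2 difference was 0.21, close to the 0.24 of the neurexin, neuroligin and Lrrtm genes. The secreted bridges of neurexin, Cbln1 and Cbln2, which join neurexins to glutamate delta receptors, differed most. Cbln2 stood at 5.28 for SAMR1, 6.58 for SAMP8 and 6.97 for SAMP8 with TG, and Cbln1 at 6.37, 7.64 and 7.25. For both, the TG-treated group stayed on the side of SAMP8. Igsf21, an adhesion protein that binds Nrxn2 at inhibitory synapses, stood at 6.29, 7.18 and 6.99 in the same order.

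Ptprf, a receptor phosphatase of the LAR type that acts as a presynaptic organiser beside the neurexins, stood at 7.27 for SAMR1, 8.35 for SAMP8 and 8.36 for SAMP8 with TG. Slitrk6, of a family that binds LAR-type phosphatases, stood at 5.64, 6.49 and 6.04. Khdrbs2, which encodes the RNA-binding protein SLM1 that steers neurexin splicing, stood at 8.62, 9.31 and 9.01. In these last 3 genes SAMR1 was again the low group. The arrays give 1 value per gene, so alpha and beta neurexins and splice forms were not told apart.

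With TG 48 of the 69 other genes were lower and 21 higher, where 48.3% of all probe sets were lower. Past 1.5-fold were 5, all lower. That was 7.25% of the 69, where 8.21% of all probe sets were past 1.5-fold in either direction and 3.74% were lower, and with the median of the probe sets of like signal subtracted it was 3 genes. The median log2 difference was -0.16, against -0.39 for the neurexin, neuroligin and Lrrtm genes. Tenm1, a teneurin that binds latrophilins across the cleft, stood at 9.34 for SAMR1, 9.79 for SAMP8 and 8.90 for SAMP8 with TG. Mdga2, which masks neuroligins from neurexin, stood at 6.59, 6.71 and 5.99, and Dag1, the dystroglycan gene whose product binds neurexins, at 10.11, 10.32 and 9.60. Slitrk1 (11.00, 11.13 and 10.51) and Slitrk5 (11.94, 12.34 and 11.71) were the other 2. In all 5, as in Nlgn3, SAMR1 lay between SAMP8 above and TG-treated SAMP8 below. That TG-treated SAMP8 lay below SAMP8 follows from how these genes were picked. The share of all probe sets with this order was not computed for drops of this size.

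Among the 77 other listed genes, neurexins, neuroligins and Lrrtm genes included, the 3 closest to Nlgn3 over the 3 group averages were Mdga2, Dag1 and Tenm1. Their Euclidean distances, on averages centred per gene, were 0.22, 0.24 and 0.25 log2 units. Likeness over 3 averages is a description. Chosen after its values were seen, Dlg4, the gene of the scaffold PSD-95, which binds neuroligins, stood at 16.56 for SAMR1, 17.03 for SAMP8 and 16.47 for SAMP8 with TG, a log2 difference of -0.56 with TG. The median over the 10 cytoplasmic partners was 0.26 between the strains and -0.18 with TG, with none past 1.5-fold.

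By role, the lists of other genes are given with the number of members lower with TG, where 48.3% of all probe sets were lower. For comparison, the median log2 difference with TG was 0.01 over all probe sets. It was -0.06 over the 25% with the highest signal. Of 13 LAR-type phosphatases and their partners 11 were lower (median log2 difference -0.34), and of 10 latrophilins, FLRT proteins and teneurins 9 were lower (-0.21). Of 16 secreted bridges and cis modulators 10 were lower (-0.20), and of 10 cytoplasmic partners 8 were lower. The 6 splicing factors and sheddases and the 8 SynCAM and SALM genes were split evenly, with medians of 0.02 and 0.07, and the 3 measured netrin-G and NGL genes had a median of -0.01. Between the strains these 7 lists had medians from 0.00 to 0.28, the highest being that of the latrophilins, FLRT proteins and teneurins. The lists overlap in no gene, and their differences from each other were not tested.

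In the TG-treated SAMP8 minus SAMR1 difference, 6 of the 69 other genes were past 1.5-fold upward and 1 downward, 10.1% of the 69 in all, where 10.5% of all probe sets were past that limit. The largest were Cbln2 (log2 difference 1.69), Ptprf (1.09), Cbln1 (0.88), Lrfn4, a postsynaptic partner of LAR-type phosphatases (0.82), and Igsf21 (0.70), and Mdga2 was the one lower (-0.60).

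**Figure D4:**
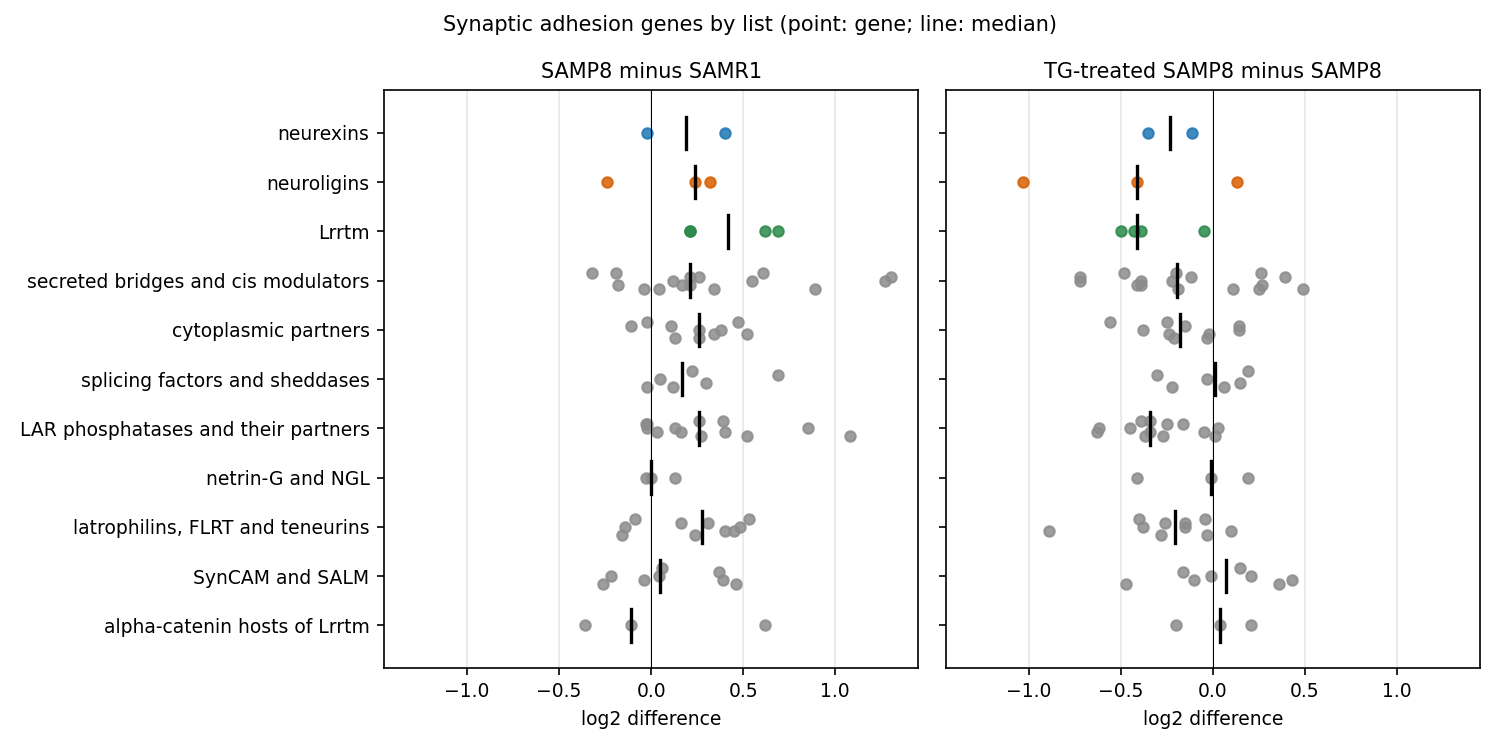
Log2 difference (x axis) of every measured gene of the synaptic adhesion lists (y axis) for SAMP8 minus SAMR1 (left) and TG-treated SAMP8 minus SAMP8 (right), with a point per gene and a line at each list's median. The neurexin, neuroligin and Lrrtm genes are coloured; Nlgn3 at -1.03 is the lowest gene of all lists with TG, and Cbln2 at 1.30 is the highest between the strains.

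Markers of other regions and cell types also differed between the averages, and in bulk tissue fewer cells of a type and less RNA per cell cannot be told apart. For the counts below, 50.5% of all probe sets were not higher in SAMP8 and 48.3% were lower with TG. All 8 thalamus markers were higher in SAMP8 than in SAMR1 and 6 of the 8 were lower with TG, and the log2 of their summed signal was 12.21 for SAMR1, 12.68 for SAMP8 and 11.45 for SAMP8 with TG. The median log2 difference of the 8 with TG was -0.09, and the lower sum rests on few of them. Chosen after the values were seen, Zic1 (log2 difference -1.91), Prkcd (-1.50) and Plekhg1 (-1.06) were past 1.5-fold lower with TG, and the other 5 lay between -0.13 and 0.10. For 6 endothelial markers, of which 5 were higher in SAMP8 and all 6 lower with TG, the log2 of the summed signal was 11.49, 12.03 and 11.26. Of 9 measured markers of hippocampal excitatory neurons, 8 were higher in SAMP8 and 5 lower with TG, with a summed signal of 15.20, 15.28 and 15.23 on the log2 scale. The pan-neuronal list stood at 20.12, 20.21 and 20.17, a sum set largely by Syt1, which stood at 19.70 in every group. Of the 6 pan-neuronal markers 4 were higher and 1 lower in SAMP8, from -0.66 for Map2 to 0.64 for Stmn2. With TG 3 were higher and 2 lower. The oligodendrocyte list stood at 18.89, 18.74 and 18.94, with 2 of 6 markers higher in SAMP8 and 5 higher with TG. All 6 astrocyte markers were higher in SAMP8 and 5 were lower with TG (summed signal 18.45, 18.51 and 18.47), and of 7 striatum markers 4 were higher in SAMP8 and 6 lower with TG (9.19, 9.93 and 9.75). The 7 meningeal markers had a summed signal of 11.04, 10.59 and 10.10, with 4 of them higher with TG. The summed signal was 13.06, 13.19 and 13.19 for microglia, 13.19, 13.24 and 13.30 for GABAergic interneurons, and 13.52, 13.79 and 13.61 for choroid plexus. Each sum follows its brightest markers, such as Enpp2 for choroid plexus (13.45, 13.70 and 13.45). Higher in SAMP8 were 3 of 6 microglial, 4 of 6 interneuron and 4 of 7 choroid plexus markers. Higher with TG were 2, 3 and 3. Gad1 (-0.35), Gad2 (-0.43) and Slc32a1 (-0.20) were lower with TG, and Pvalb (0.83), Sst (0.69) and Vip (0.74) higher. No marker was listed at 0, but the lowest average of any probe set was 2.39, so this says nothing about detection. The part of these markers in the differences of the neurexin, neuroligin and Lrrtm genes was not tested.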

How the data were processed

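Hippocampal RNA was hybridized to Clariom S Mouse arrays, 3 per group by the titles. Per the labels, the authors normalized the intensities with SST-RMA, run in Transcriptome Analysis Console (version 4.0.1 in the series text; the methods name another release). The 2 deposited tables hold, for 22206 probe sets annotated on mm10 (GRCm38), the authors' group averages as log2 signal with 2 decimals. How the averages were formed is not given in the sources used here. The tables also hold the authors' own fold changes, p-values and adjusted p-values, which were not used. Columns were matched to groups through the sample titles. The SAMP8 averages were identical in both tables, which let TG-treated SAMP8 be set beside SAMR1.

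Differences of averages were computed for each probe set, and 1 value per gene was used, the mean over its probe sets. Counts past 1.5-fold were set beside the share of all probe sets past that limit, and each gene beside the 1000 probe sets of closest average signal or gene span. Spans and positions come from RefSeq (GRCm38), which placed all 9 genes. Of the other adhesion genes those past 1.5-fold are named, up to 6 per comparison, with the 3 closest to the gene of widest range and the alpha-catenin hosts. The 9 genes, the lists and the limits were chosen with earlier results of these data known. Alternatives were fold limits of 1.1, 1.2 and 2, median centring, quantile normalization, dropping the dimmest 25% of probe sets, other handling of probe sets, and means over genes. The counting was tested on simulated data. Computation used Python 3.11.15, numpy 2.4.6, pandas 2.3.3 and matplotlib 3.10.9.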

Additional observations from a re-analysis of the deposited data

How the results depend on the processing

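No paired analysis was possible because the deposited columns are group averages and carry no replicate numbers. For the same reason no array could be left out. Of 96 values under alternatives, 72 stayed within 1.5 times (counts) or within 0.1 log2 units (medians) and 0 turned sign. Part of the 72 could not have moved. Each of the 9 genes has 1 probe set, brighter than the dimmest ones that were dropped. Neither that step nor taking the brightest probe set could therefore change a value of the 9. A count cannot turn sign, so the 0 speaks for the medians only. Single genes did turn, Nrxn3 between the strains under median centring and Lrrtm3 with TG under quantile normalization. The limit of 0.1 was set here, as no spread between arrays could be computed. The fold limit moved the counts most. The direction of those moves was fixed in advance, as a lower limit cannot lower a count and a higher one cannot raise it. At 1.1-fold, 8, 6 and 7 of the 9 genes were past it for SAMP8 minus SAMR1, TG-treated SAMP8 minus SAMP8 and TG-treated SAMP8 minus SAMR1. So were 46, 53 and 40 of the 69 other adhesion genes, and 65.5%, 63.4% and 64.9% of all probe sets. At 1.2-fold the counts were 4, 6 and 6 of the 9 and 29, 28 and 26 of the others, where 40.8%, 38.2% and 40.5% of all probe sets were. At 2-fold they were 0, 1 and 0 of the 9 and 3, 0 and 2 of the others, where 2.22%, 0.761% and 1.81% of all probe sets were. Quantile normalization left 1 of the 9 and 5 of the other genes past 1.5-fold between the strains. Centring each group on its median gave 2 of the 9 for TG-treated SAMP8 minus SAMR1. When the median of the probe sets of like signal was subtracted, an alternative chosen after seeing the data, 1 of the 9 and 5 of the others were past 1.5-fold between the strains, with a median log2 difference of 0.12 over the 9, and 3 of the others were past it with TG. The share of all probe sets past 1.5-fold was not computed under quantile normalization, median centring or this subtraction.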
